A study of Mus musculus with 40 samples.

Results

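The mRNA levels of 10 genes that make or regulate the chemistry of DNA methylation were followed across p53-deficient mouse gliomas, cell lines grown from them and control cortex. The genes were listed by name and not by a cut on measured values, but earlier results of these data were known when they were chosen. Of them, 3 encode isocitrate dehydrogenases (Idh1, Idh2 and Idh3a) and 3 encode DNA methyltransferases (Dnmt1, Dnmt3a and Dnmt3b). The methyltransferase partner Uhrf1 is 1 more, and 3 encode the methylcytosine dioxygenases Tet1, Tet2 and Tet3. All 10 were measured, among 18193 genes with a probe set of their own on the array, by 27 of 34945 probe sets that name a single gene. A probe set is a group of short oligonucleotides on the array that together report 1 transcript, and no probe set named 1 of the 10 genes together with another gene. Idh1, Idh2, Dnmt3b, Uhrf1 and Tet2 had 2 probe sets each, Idh3a and Tet1 had 4, Dnmt1 had 3, Dnmt3a had 5 and Tet3 had 1.

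The 40 arrays fell into 5 groups. There were 2 cell lines from early biopsies and 11 cell lines from primary tumors (tumor lines) of mice of genotype hGFAP-cre+;p53LSLR172H/floxE2-10, in which Cre leaves 1 p53 allele with the R172H missense mutation and deletes the other. The same genotype gave 11 p53R172HCKO gliomas, and hGFAP-cre+;p53floxE2-10/floxE2-10 mice, which lose both copies, gave 11 p53nullCKO gliomas. The controls were 5 cortices, of which 3 came from hGFAP-cre+;p53floxE2-10/+ mice that lose 1 copy in the same cells (arrays 30, 31 and 32) and 2 from hGFAP-cre-;p53floxE5-6/floxE5-6 mice without Cre (arrays 33 and 34). Cre was driven by the human GFAP promoter, which is active in neural cells. The lines were early-passage sphere cultures in neural stem cell medium with bFGF and EGF. Arrays are named below by the number in their label. The targeted gene itself was not analysed here.

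Idh1 and Idh2 convert isocitrate to 2-oxoglutarate with NADP+ as electron acceptor, Idh1 in the cytosol and peroxisomes and Idh2 in mitochondria, whereas Idh3a is the catalytic subunit of the NAD+-dependent enzyme of the citric acid cycle. 2-oxoglutarate is the co-substrate of the TET enzymes, which oxidize 5-methylcytosine and so start its removal. Hotspot mutations in human IDH1 or IDH2 yield 2-hydroxyglutarate, an inhibitor of TET enzymes, and gliomas that carry them have densely methylated CpG islands. The study reported that gliomas of its p53 models had no somatic Idh1 or Idh2 mutation. It described them as closer to human tumors without IDH mutation. Dnmt1 copies methylation onto the new strand at replication, guided by Uhrf1, which binds hemimethylated CpG, while Dnmt3a and Dnmt3b add methylation at sites that lacked it.

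The windows around the annotated starts of Uhrf1 and Dnmt1 are shown because, among the windows of these genes, they alone held a match to the 4 E2F motifs searched. E2F is the factor family that drives genes of DNA replication. Other forms of its site were not searched, so the other windows may hold them. Each window runs from 250 bases before to 50 bases after a start, is taken from RefSeq on build GRCm38.p6, and reads in the direction of the gene. The Uhrf1 window lies at chr17:56304063-56304362 on the plus strand and the Dnmt1 window at chr9:20952574-20952873 on the minus strand. Capitals mark a match to TTTCCCGC, TTTGGCGC, TTTCGCGC or TTTGCCGC on either strand.
Uhrf1: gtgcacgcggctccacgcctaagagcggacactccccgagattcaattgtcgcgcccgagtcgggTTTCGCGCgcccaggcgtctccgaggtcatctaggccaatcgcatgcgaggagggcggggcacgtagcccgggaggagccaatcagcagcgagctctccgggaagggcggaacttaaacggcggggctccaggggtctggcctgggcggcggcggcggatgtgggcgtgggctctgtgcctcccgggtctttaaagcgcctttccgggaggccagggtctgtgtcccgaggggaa
Dnmt1: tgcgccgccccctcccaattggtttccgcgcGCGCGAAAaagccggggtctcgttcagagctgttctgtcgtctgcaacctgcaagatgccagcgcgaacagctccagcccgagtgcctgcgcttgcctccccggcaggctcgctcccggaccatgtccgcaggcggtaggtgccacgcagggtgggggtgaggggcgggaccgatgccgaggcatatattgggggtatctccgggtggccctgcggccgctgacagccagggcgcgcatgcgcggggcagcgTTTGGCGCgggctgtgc
The tables held windows for 9 of the 10 genes, 15 windows in all, and a match lay in 2 of them, those shown. Both genes have other annotated starts, whose windows held no match. Idh1, which also ran with the cell cycle score described below in gliomas (Pearson r = 0.77, against 0.71 for Dnmt1), had 2 windows, and neither held a match. Over all 32851 windows of this length, 2.26% held a match. The Uhrf1 window held TTTCGCGC, and the Dnmt1 window held TTTCGCGC on the opposite strand and TTTGGCGC, with no overlap between matches. CpG pairs numbered 33 in each of these windows, from 2 to 57 over the 15 windows of the genes (median 23), and had a median of 7 over all windows. Each motif contains a CpG, so the share over all windows is not a like baseline for windows this rich in CpG. The arrays measure RNA only, and neither methylation nor factor binding at these windows was measured.

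Values below are log2 signals, so that 1 unit is a doubling, and each gene is represented by its brightest probe set, taken over the 40 arrays together. Levels are compared between groups of samples and never between genes. The array medians lay between 5.24 and 5.47, and a gene near or below them is dim. Differences were tested with limma across all 18193 genes, and a gene was called at an adjusted p (Benjamini-Hochberg) under 0.05. The methods pair the p53R172HCKO gliomas with the tumor lines, so these groups share mice, but the labels do not say which line came from which tumor, and they were compared without pairing. The labels tie no other arrays to a mouse, so a p-value reflects no more than the scatter among the samples at hand. The labels were checked against marker genes. All 17 measured markers of mature neurons were lower in gliomas than in cortex, and the mean of their centred values (the neuron score) ran from -2.18 to 3.96 in gliomas and from 3.86 to 4.64 in cortex. Of 29 cell cycle genes, 28 were higher in gliomas, with scores from -2.43 to 1.89 in gliomas and from -3.77 to -3.58 in cortex. The gliomas of arrays 38, 45 and 58 had the highest neuron scores among gliomas (3.52, 3.53 and 3.96), and those of arrays 36, 41 and 50 low oligodendrocyte progenitor scores (-2.71, -1.29 and -3.65). A primary tumor was noted in the study as holding normal tissue by histology, and the labels do not say which array it is. Results that rest on these arrays are given with and without them. In bulk tissue, fewer cells of a type and less RNA per cell cannot be told apart.

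**Figure D1:**
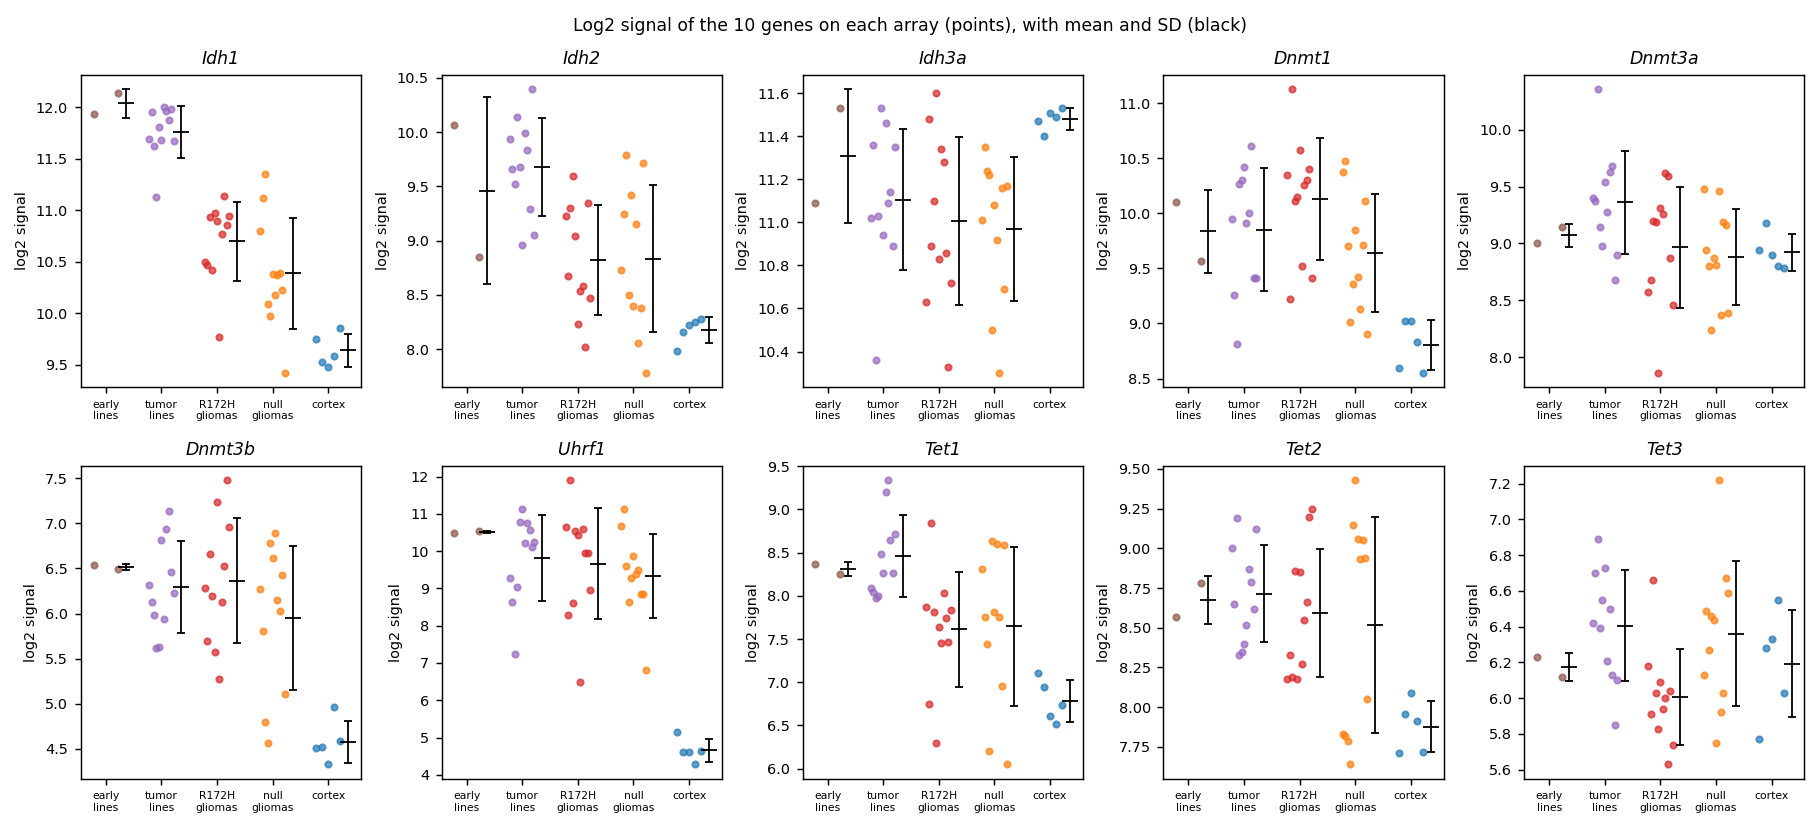
Log2 signal (vertical axis, 1 scale for each gene) of the 10 genes on every array, with groups from left to right as early biopsy lines, tumor lines, p53R172HCKO gliomas, p53nullCKO gliomas and cortex; points are arrays and black marks give the mean and SD. Uhrf1 was at 6.50 or above on every glioma and line and at 5.14 or below on every cortex, the means of Idh1 stepped down over the groups in that order, and Idh3a was the gene with cortex at the top.

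The first comparison asked how the 22 gliomas differed from the 5 control cortices. By label number the cortices come before every glioma and line. Anything that ran with array number therefore cannot be told apart from tissue, here or where lines are set against cortex. Of the 10 genes, 7 were higher in gliomas (Idh1, Idh2, Dnmt1, Dnmt3b, Uhrf1, Tet1 and Tet2) and 1 was lower (Idh3a), while Dnmt3a and Tet3 did not pass. Over all genes tested, 22.6% were called higher and 24.7% lower. The median log2 fold change of the 10 genes was 0.76, against -0.03 over all genes.

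Uhrf1, which recruits Dnmt1 to replicated DNA, showed the largest difference of the 10 genes. Its signal ran from 6.50 to 11.91 in p53R172HCKO gliomas (median 9.96) and from 6.81 to 11.14 in p53nullCKO gliomas (median 9.39), against 5.14, 4.62, 4.60, 4.28 and 4.65 in the cortices of arrays 30 to 34. Every glioma lay above every cortex, and the lowest gliomas were those of arrays 58 and 45. The log2 fold change was 4.84 (standard error 0.57, limma adjusted p = 2.25e-08), or 28.6-fold, and the second probe set gave 3.43 (standard error 0.53). All cortex values were dim, under the array medians, and the size of the fold change rests on them. The cell cycle scores given above moved with this difference, and their part in it was not tested.

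Dnmt1, the maintenance methyltransferase, ran from 9.22 to 11.13 in p53R172HCKO gliomas (median 10.26) and from 8.90 to 10.47 in p53nullCKO gliomas (median 9.70), against 8.60, 9.02, 9.02, 8.83 and 8.55 in cortex. Of the 22 gliomas, 20 were above every cortex and 2 lay within the cortex range, those of arrays 38 (9.01) and 45 (8.90). It rose by 1.08 (standard error 0.25, adjusted p = 0.000524), or 2.12-fold, and its 3 probe sets gave 1.04, 1.08 and 1.11.

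The de novo methyltransferase Dnmt3b ran from 5.28 to 7.48 in p53R172HCKO gliomas (median 6.28) and from 4.57 to 6.89 in p53nullCKO gliomas (median 6.15), against 4.51, 4.52, 4.33, 4.96 and 4.59 in cortex. It rose by 1.58 (standard error 0.31, adjusted p = 5.92e-05), with 20 of 22 gliomas above every cortex, and its second probe set gave 1.22. Cortex was again below the array medians. Dnmt3a, the other de novo enzyme and abundant in postmitotic neurons, gave no such difference: its log2 fold change was 0.01 (standard error 0.22, adjusted p = 0.986), with 9 gliomas above, 7 below and 6 within the cortex range of 8.78 to 9.18. Of its 5 probe sets, 1 was called higher (1423064_at, 0.58, adjusted p = 0.00501), and the other 4 lay between -0.11 and 0.09.

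Of the TET genes, Tet1 ran from 6.30 to 8.84 in p53R172HCKO gliomas (median 7.74) and from 6.05 to 8.64 in p53nullCKO gliomas (median 7.76), against 7.11, 6.94, 6.61, 6.52 and 6.74 in cortex. It rose by 0.84 (standard error 0.32, adjusted p = 0.0286), although 3 gliomas lay below every cortex. Of its 3 other probe sets 1 was called, 1455425_at (1.05, adjusted p = 0.0131), and 2 were not (0.15 and 0.12). The last of these, 1419897_at, was dim (mean 3.92 in cortex and 4.03 in gliomas). The mean of all 4, which includes it, gave 0.54 (adjusted p = 0.0627). Tet2 ran from 8.18 to 9.25 in p53R172HCKO gliomas (median 8.55) and from 7.64 to 9.43 in p53nullCKO gliomas (median 8.93), against 7.71, 7.96, 8.09, 7.91 and 7.72 in cortex. It rose by 0.68 on this probe set (standard error 0.22, adjusted p = 0.0117) and by 1.70 on the other (adjusted p = 0.00155), with 1.19 for their mean. On this probe set 17 of 22 gliomas were above every cortex, 4 within the cortex range and 1 below it. Those not above were the p53nullCKO gliomas of arrays 35 to 38 and 45 (7.64 to 8.05). The p53nullCKO gliomas of arrays 39 to 44 ran from 8.93 to 9.43. Tet3, measured by a single probe set, gave -0.01 (standard error 0.16, adjusted p = 0.972), and 15 of 22 gliomas lay within the cortex range of 5.77 to 6.55. Tet1 and Tet2 did not pass with only the 3 Cre-positive cortices (adjusted p = 0.16 and 0.0786), nor did Tet1 without the cortex of array 32, 33 or 34 (0.0673, 0.077 and 0.0563) or with only the groups compared in the model (0.053), nor Tet2 with cyclic loess (0.0721).

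The isocitrate dehydrogenase genes moved in opposite directions. Idh1 ran from 9.77 to 11.14 in p53R172HCKO gliomas (median 10.86) and from 9.42 to 11.35 in p53nullCKO gliomas (median 10.37), against 9.75, 9.53, 9.48, 9.59 and 9.86 in cortex. All gliomas but those of arrays 45 (9.42) and 58 (9.77) were above every cortex. Idh1 rose 1.87-fold (log2 fold change 0.90, standard error 0.19, adjusted p = 0.000153), and its second probe set gave 1.0. Both Idh1 probe sets carry the suffix _s_at, with which the manufacturer marks probes that can match more than 1 transcript.

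Idh2 ran from 8.02 to 9.60 in p53R172HCKO gliomas (median 8.67) and from 7.78 to 9.79 in p53nullCKO gliomas (median 8.73), against 7.98, 8.16, 8.22, 8.25 and 8.28 in cortex. Of 22 gliomas 18 were above every cortex. It rose by 0.65 (standard error 0.26, adjusted p = 0.0372), but the call did not hold when any single cortex was left out (adjusted p from 0.0557 to 0.0901), and its second, dim probe set gave 0.15 (adjusted p = 0.39).

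Idh3a ran from 10.33 to 11.60 in p53R172HCKO gliomas (median 10.89) and from 10.30 to 11.35 in p53nullCKO gliomas (median 11.08), against 11.47, 11.40, 11.51, 11.49 and 11.53 in cortex. The cortices were tightly grouped, and 20 of 22 gliomas lay below all of them. The log2 fold change was -0.50 (standard error 0.16, adjusted p = 0.0118), and it did not pass with only the Cre-positive cortices (adjusted p = 0.0737). Its 3 other probe sets fell by more, 1422500_at by 1.90 (adjusted p = 2.44e-06), 1422501_s_at by 1.86 (adjusted p = 2.47e-06) and 1447701_x_at by 1.07 (adjusted p = 5.46e-07). The last of these was dim in gliomas (mean 4.8, against 5.87 in cortex). The mean of all 4 gave -1.33, and cyclic loess scaling gave -0.83 for the brightest. On 1422501_s_at the cortices lay between 9.86 and 10.06, above every glioma (6.97 to 9.81), so the brightest probe set was the 1 with the smallest difference.

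Over the 27 probe sets, 15 were called higher, 4 lower (all of Idh3a) and 8 were not called, against 22.5% higher and 24.3% lower over all probe sets of this comparison.

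**Figure D2:**
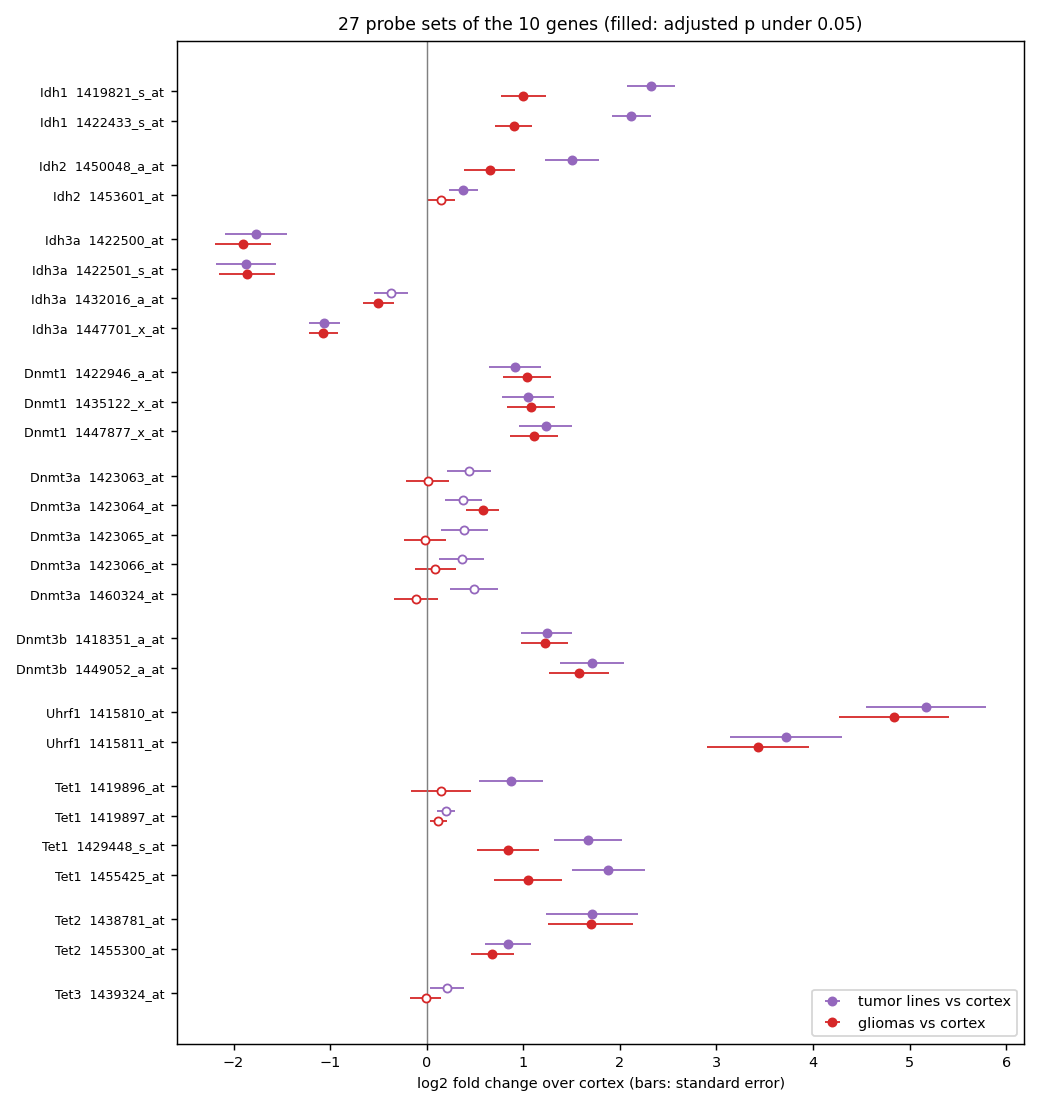
Log2 fold change over cortex (horizontal axis, bars are standard errors) of the 27 probe sets, for tumor lines (purple) and gliomas (red); filled points passed an adjusted p of 0.05. The probe sets of Dnmt1, Dnmt3b and Uhrf1 sat to the right of 0 and those of Idh3a to the left in both comparisons, while Tet1, Idh2 and Dnmt3a had probe sets on both sides of the threshold in gliomas.

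The second comparison asked whether the kind of p53 allele mattered for these genes. None of the 10 was called between p53R172HCKO and p53nullCKO gliomas, at a background of 0% of genes called higher and 0.033% (6 genes) called lower. At an unadjusted p under 0.05, 2024 genes and 2 of the 10 passed in limma. These were Dnmt1, with a mean of 10.13 ± 0.55 in p53R172HCKO gliomas and 9.64 ± 0.53 in p53nullCKO gliomas (SD, n = 11 each; log2 fold change 0.49, standard error 0.22, adjusted p = 0.386), and Tet3, at 6.01 ± 0.27 in p53R172HCKO gliomas and 6.36 ± 0.41 in p53nullCKO gliomas (log2 fold change -0.35, standard error 0.14, adjusted p = 0.296). The other 8 genes had log2 fold changes between -0.04 (Tet1) and 0.41 (Dnmt3b), with standard errors from 0.14 to 0.49, and the ranges of the groups overlapped for every gene. By label number the p53nullCKO gliomas are arrays 35 to 45 and the p53R172HCKO gliomas arrays 46 to 67, so anything that ran with array number cannot be told apart from genotype.

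The third comparison set the 11 tumor lines, grown in culture, against the 11 p53R172HCKO gliomas. Of the 10 genes 4 were higher in the lines, Idh1, Idh2, Tet1 and Tet3, and none was lower, at a background of 7.24% of genes called higher and 6.43% called lower. With cyclic loess scaling 790 genes were higher and 1400 lower, in place of 1317 and 1170, and of the 10 genes only Idh1 and Idh2 were then called. All 14 microglial and macrophage markers and all 10 endothelial and pericyte markers were lower in the lines, with microglial scores from -3.49 to -2.67 in lines and from 0.46 to 3.0 in p53R172HCKO gliomas; the part of these cells in the differences was not tested.

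Idh1 ran from 11.13 to 12 in the lines (median 11.81), against 9.77 to 11.14 in p53R172HCKO gliomas (median 10.86). Of 11 lines 10 were above every p53R172HCKO glioma, the other being array 53. It rose 2.09-fold (log2 fold change 1.07, standard error 0.16, adjusted p = 9.1e-06) and by 1.06 on the second probe set. Idh2 ran from 8.96 to 10.40 in the lines (median 9.68), against 8.02 to 9.60 in gliomas (median 8.67), and rose 1.81-fold (log2 fold change 0.86, standard error 0.22, adjusted p = 0.00794). Its second probe set gave 0.27 (adjusted p = 0.124) and the mean of both 0.57 (adjusted p = 0.00821). Idh3a had a median of 11.09 in lines and 10.89 in gliomas, and did not pass (log2 fold change 0.10, standard error 0.14, adjusted p = 0.68).

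Tet1 ran from 7.98 to 9.34 in lines (median 8.27) and from 6.30 to 8.84 in p53R172HCKO gliomas (median 7.74), a rise of 0.85 (standard error 0.28, adjusted p = 0.0347). Tet3 ran from 5.85 to 6.89 in lines (median 6.42) and from 5.63 to 6.66 in gliomas (median 6.00), a rise of 0.40 (standard error 0.14, adjusted p = 0.048). Both sat near the threshold. Without _x_at and _s_at probe sets the adjusted p of Tet1 was 0.105, and its 3 other probe sets gave 0.69, 0.13 and 0.73 with none called. The value of 0.13 came from the dim 1419897_at (mean 4.12 in lines). With cyclic loess the adjusted p was 0.0529 for Tet1 and 0.125 for Tet3, and without the gliomas of arrays 38, 45 and 58 it was 0.068 for Tet3. The maintenance genes gave no difference past the test. Uhrf1 was at 9.82 ± 1.16 in lines and 9.67 ± 1.48 in gliomas, and Dnmt1 at 9.85 ± 0.56 in lines and 10.13 ± 0.55 in gliomas (SD, n = 11 each). For Dnmt3a the log2 fold change came to 0.39 (adjusted p = 0.158), for Dnmt3b to -0.08 (adjusted p = 0.884) and for Tet2 to 0.12 (adjusted p = 0.73).

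Set against cortex, which shares its arrays with the first comparison, the tumor lines were higher for 7 of the 10 genes, at a background of 25.5% of genes called higher and 24.3% called lower (4641 and 4422 genes, or 3704 and 5281 with cyclic loess). For Idh1, Idh2, Dnmt3b, Uhrf1, Tet1 and Tet2 all 11 lines lay above all 5 cortices. The share of all genes separated in this way was not computed, so this tally has no background to be read against. Uhrf1 rose by 5.17 (standard error 0.62, adjusted p = 1.64e-08), Idh1 by 2.12 (standard error 0.21, adjusted p = 2.49e-10), Dnmt3b by 1.71 (adjusted p = 4.82e-05), Tet1 by 1.67 (adjusted p = 0.000117), Idh2 by 1.50 (adjusted p = 2.78e-05), Dnmt1 by 1.05 (adjusted p = 0.00156) and Tet2 by 0.84 (adjusted p = 0.00411). The Tet2 call was lost with cyclic loess (adjusted p = 0.0795). For Dnmt3a the difference was 0.44 (adjusted p = 0.119, or 0.0294 with array weights) and for Tet3 0.21 (adjusted p = 0.326). Idh3a was not called on its brightest probe set (-0.37, adjusted p = 0.0784), where 9 of 11 lines lay below every cortex. It fell by 1.77, 1.87 and 1.06 on the 3 others (adjusted p from 1.61e-06 to 1.8e-05) and by 1.27 on the mean of the 4. The fall of 1.06 came from 1447701_x_at, which was dim in lines (mean 4.81). Of the 27 probe sets 16 were called higher and 3 lower, against 26.5% and 23% of all probe sets.

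The lines from 2 early biopsies were set against the 11 tumor lines. None of the 10 genes was called, with 0% of genes called higher and 0% called lower; at an unadjusted p under 0.05, 515 genes and 0 of the 10 passed in limma, and array weights called 1 gene. Idh1 was at 11.94 and 12.14 in the early biopsy lines, against 11.13 to 12 in tumor lines. Idh2 was at 10.07 and 8.85, the second of which was below every tumor line (8.96 to 10.40). Standard errors ran from 0.25 to 0.88.

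The order of the group means differed between genes. For Idh1 it was early biopsy lines (12.04), tumor lines (11.76), p53R172HCKO gliomas (10.70), p53nullCKO gliomas (10.39) and cortex (9.64), and of the neighbours tested only tumor lines and p53R172HCKO gliomas differed. Uhrf1 had the same order (10.51, 9.82, 9.67, 9.33 and 4.66), with none of the neighbours above cortex separated by the test. Dnmt1 was highest in p53R172HCKO gliomas (10.13), Dnmt3a in tumor lines (9.36) and Dnmt3b in early biopsy lines (6.51). Idh3a was the gene of the 10 with its highest mean in cortex (11.48).

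Among the gliomas, the level of each gene was set against the cell cycle and neuron scores, and among tumor lines against the cell cycle score, 30 relations in all. Glioma values were taken relative to their genotype mean and permuted within genotype (100000 permutations), with Benjamini-Hochberg adjustment over the 30. None of the 10 genes is in a score list. Uhrf1 followed the cell cycle score in the 22 gliomas, with Pearson r = 0.94 (permutation p = 1e-05, the smallest they can give, adjusted p = 0.0003) and Spearman rho = 0.89 (permutation p = 1e-05, adjusted p = 0.0003). It was 0.94 within p53R172HCKO gliomas, 0.95 within p53nullCKO gliomas and 0.92 without the 2 arrays farthest from the median score. In the 11 tumor lines r was 0.97 (permutation p = 2e-05, adjusted p = 0.0003) and rho 0.86 (permutation p = 0.00116, adjusted p = 0.0116), and r was 0.89 without the 2 farthest lines.

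Dnmt1 followed the same score less closely. In gliomas r was 0.71 (permutation p = 0.0002, adjusted p = 0.0015), rho 0.70 (permutation p = 0.00071, adjusted p = 0.0106), and r was 0.71 and 0.72 within the p53R172HCKO and p53nullCKO genotypes and 0.78 without the 2 farthest arrays. In tumor lines r was 0.74 (permutation p = 0.0072, adjusted p = 0.027) and rho 0.68 (permutation p = 0.025, adjusted p = 0.0939), but r was 0.28 without the 2 farthest lines, so that relation rests on them. For Idh1 r was 0.77 in gliomas (permutation p = 6e-05, adjusted p = 0.0006) and rho 0.53 (permutation p = 0.0161, adjusted p = 0.069), with r of 0.81 and 0.77 within the p53R172HCKO and p53nullCKO genotypes. It was 0.52 without the 2 farthest arrays, those of arrays 45 and 58, and no longer passed (adjusted p = 0.0855). In tumor lines, where Idh1 was higher than in p53R172HCKO gliomas, r was 0.27 (permutation p = 0.4, adjusted p = 0.521) and rho 0.27 (permutation p = 0.421, adjusted p = 0.624). Tet1 in tumor lines had r = 0.67 (permutation p = 0.0237, adjusted p = 0.0789) and rho = 0.81 (permutation p = 0.00441, adjusted p = 0.0265).

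**Figure D3:**
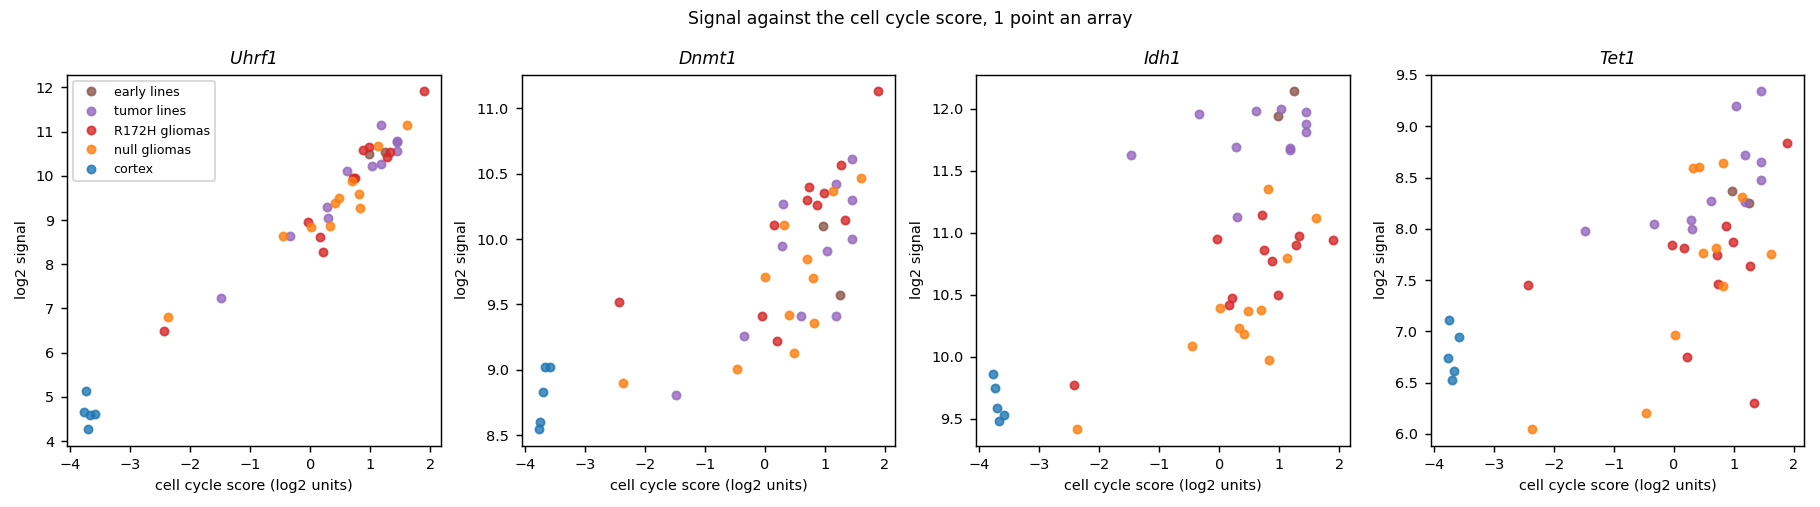
Log2 signal of Uhrf1, Dnmt1, Idh1 and Tet1 (vertical axes) against the cell cycle score (horizontal axes, mean of centred log2 values of 29 genes), 1 point an array, coloured by group. Uhrf1 lay close to a line over gliomas (r = 0.94) and tumor lines (r = 0.97), while for Idh1 10 of the 11 tumor lines sat above every p53R172HCKO glioma.

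Against the neuron score, Idh3a rose, with r = 0.59 (permutation p = 0.00472, adjusted p = 0.0202) and rho = 0.64 (permutation p = 0.00268, adjusted p = 0.0201), and r was 0.60 and 0.59 within the p53R172HCKO and p53nullCKO genotypes and 0.59 without the 2 farthest arrays. With the mean of its 4 probe sets r was 0.87. Tet2 ran the other way, at r = -0.63 (permutation p = 0.00192, adjusted p = 0.0096) and rho = -0.47 (permutation p = 0.0323, adjusted p = 0.108), with r = -0.66 without the 2 farthest arrays. For Tet2 r was -0.55 within p53R172HCKO and -0.70 within p53nullCKO gliomas. In the latter, arrays 39 to 44, with the high Tet2 signals, had neuron scores from -2.18 to -0.33. Arrays 35 to 38 and 45 had 0.99, 1.02, -0.91, 3.52 and 3.53. Score and array number thus ran together on most of these arrays, and their parts were not tested. Dnmt3b gave r = -0.66 (permutation p = 0.00134, adjusted p = 0.00804) and rho = -0.55 (permutation p = 0.0117, adjusted p = 0.0584). Its r was -0.56 without the 2 farthest arrays (adjusted p = 0.0791) and -0.36 without arrays 38, 45 and 58 (adjusted p = 0.312), so it rests on those gliomas. The other 22 of the 30 relations did not pass with Pearson's r.

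**Figure D4:**
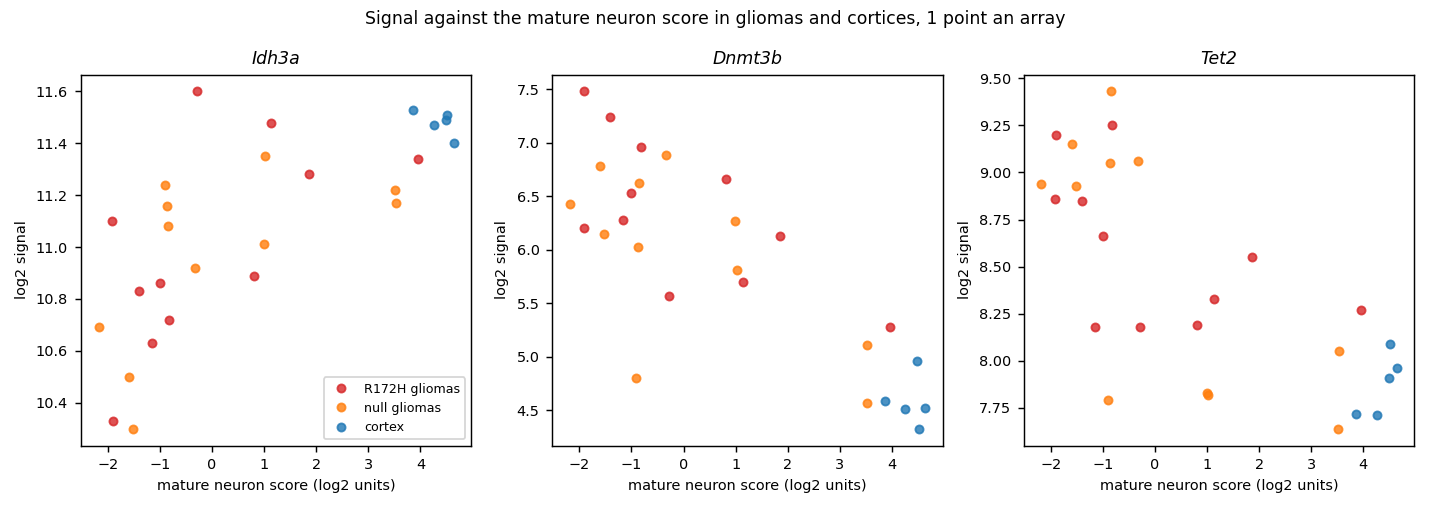
Log2 signal of Idh3a, Dnmt3b and Tet2 (vertical axes) against the mature neuron score (horizontal axes, mean of centred log2 values of 17 genes) in gliomas and cortices, 1 point an array. Over the 22 gliomas Idh3a rose with the score (r = 0.59) and Dnmt3b and Tet2 fell (r = -0.66 and -0.63), and the cortices, which did not enter the r, sat at the right end.

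The genes most like each of the 10 were the 3 with the highest Pearson r over the 22 gliomas after the genotype means were subtracted, given as a description. For Uhrf1 they were the replication helicase gene Mcm3 (r = 0.96), the exonuclease gene Exo1 (0.96) and the kinetochore gene Kntc1 (0.95). For Dnmt1 they were the RNA-binding protein gene Hnrnpa2b1 (0.85), the anaphase-promoting complex gene Cdc23 (0.85) and the nuclear export gene Cse1l (0.83). For Idh1 they were the ribonucleotide reductase gene Rrm2 (0.86), Mns1 (0.86) and A130010J15Rik (0.84). Of these, Mcm3 and Rrm2 belong to the cell cycle list.

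Idh3a ran with Cox5a, a subunit gene of cytochrome c oxidase (0.90), Disp2 (0.83) and Tusc3 (0.78), and Idh2 with Lrrc42 (0.75), Zfand6 (0.73) and Mios (0.73). Tet1 ran with Gabpb2 (0.91), the histone methyltransferase gene Ehmt1 (0.88) and the Polycomb-related gene Asxl1 (0.87), and Tet2 with Supt20 (0.92), the splicing factor gene Prpf38b (0.91) and Khnyn (0.91). Dnmt3b ran with Thoc2l (0.93), Rbak (0.92) and the Mediator gene Med23 (0.88), Dnmt3a with Zbtb40 (0.81), Gtf2i (0.81) and Pigb (0.79), and Tet3 with 1700036A12Rik (0.82), Anks4b (0.80) and Hectd3 (0.78).

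The pathways around the 10 genes were followed by lists. Of 17 measured genes of the citric acid cycle and isocitrate dehydrogenase subunits, 2 were higher and 7 lower in gliomas than in cortex, against 22.6% and 24.7% of all genes, with a median log2 fold change of -0.13. Those lower included Ogdh, the 2-oxoglutarate dehydrogenase (-1.05, standard error 0.19), the malate dehydrogenase gene Mdh1 (-0.79) and Idh3b, a second subunit of the Idh3a enzyme (-0.77, adjusted p = 3.03e-06). Those higher were the cytosolic aconitase Aco1 (1.16), which makes the substrate of Idh1, and the succinyl-CoA ligase gene Suclg2 (1.0). In tumor lines against p53R172HCKO gliomas 3 of the 17 were higher and none lower (7.24% and 6.43% of all genes), namely Suclg2 (0.91), the citrate synthase gene Cs (0.62) and Sdhc (0.41).

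Of 9 measured genes that make or use glutamate, 2-oxoglutarate or 2-hydroxyglutarate, 3 were higher and 4 lower in gliomas than in cortex, against 22.6% and 24.7% of all genes. The aminotransferase Got1 fell by 2.87 (standard error 0.51), glutamine synthetase Glul by 1.20 and Got2 by 0.83, while Gpt2 rose by 1.26 and the serine synthesis genes Phgdh and Psat1 by 1.24 and 0.95. D2hgdh, which oxidizes D-2-hydroxyglutarate back to 2-oxoglutarate, was lower in tumor lines (mean 7.46) than in cortex (mean 8.67; log2 fold change -1.20, standard error 0.45, adjusted p = 0.0239). Its mean was 7.62 in p53R172HCKO gliomas and 9.02 in p53nullCKO gliomas (log2 fold change -1.39, standard error 0.35, adjusted p = 0.101), a pair singled out after its values were seen. Of 9 genes of the methyl donor cycle, 3 were higher, led by the methylthioadenosine phosphorylase Mtap (2.18) and methionine synthase Mtr (1.52), and 3 lower, led by Mat2b (-1.16) and Ahcyl1 (-1.03). Both counts are near the shares over all genes (22.6% and 24.7%), and Mtr was dim in cortex (mean 4.49).

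Of 12 cofactors of DNA methylation, 6 were higher in gliomas than in cortex and none lower, against 22.6% and 24.7% of all genes (median 0.52). Hells, a chromatin remodeler needed for methylation of repeats, rose by 4.13 (standard error 0.54), the deacetylase Hdac1 by 2.11 and the replication ligase Lig1 by 1.96. Of 17 partners of demethylation and base excision repair, 9 were higher and none lower, against the same shares over all genes (median 0.68), led by the uracil glycosylase Ung (3.26), Apobec1 (2.82) and Gadd45g (1.65). Hells, Ung and Apobec1 were below the array medians in cortex (means 3.84, 4.53 and 5.15), which limits how exact their differences are. In tumor lines against cortex 11 of the 17 were higher, led by Ung (3.43), and 1 lower, Cxxc4 (-1.29), against 25.5% and 24.3% of all genes. In tumor lines against p53R172HCKO gliomas 2 of the 17 were higher and 1 lower, against 7.24% and 6.43% of all genes. The glycosylases Neil1 (1.10) and Smug1 (0.40) rose and Cxxc4 fell by 0.88. Of 9 proteins that bind CpG, 4 were higher, led by Kdm2b (1.88), and 2 lower, Zbtb4 (-2.38) and Kdm2a (-0.73), against 22.6% and 24.7% of all genes, so that the count of lower genes is near that share.

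Genes that DNA methylation is known to control were counted as well. Of 15 germline genes listed as silenced by promoter methylation in somatic cells, none was higher in gliomas, against 22.6% of all genes. Lower were 3, Dazl (-1.73), Sycp3 (-0.82) and Mael (-0.34), a count near the 24.7% of all genes. All of the list but Brdt had mean signals under the array medians in every group. Brdt, which was not called, had means of 7.53 in cortex, 7.15 in p53nullCKO gliomas and 6.92 in p53R172HCKO gliomas, above those medians. Of 19 imprinted genes, 2 were higher, Peg12 (2.23) and Mest (1.46), and 5 lower, led by Usp29 (-2.96), Peg3 (-2.61) and Impact (-2.52). These counts are below the 22.6% and near the 24.7% of all genes, and Peg12 was dim in cortex (mean 2.67). In tumor lines against p53R172HCKO gliomas 1 of the 19 was higher and 1 lower, near the 7.24% and 6.43% of all genes. Sgce rose by 0.70 (standard error 0.18). The imprinted RNA Meg3 fell by 2.63 (standard error 0.60, adjusted p = 0.00262), with means of 6.63 in lines, 9.25 in p53R172HCKO gliomas and 10.67 in cortex. Between the p53R172HCKO and p53nullCKO gliomas, none of the genes in any of these 8 lists was called.

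**Figure D5:**
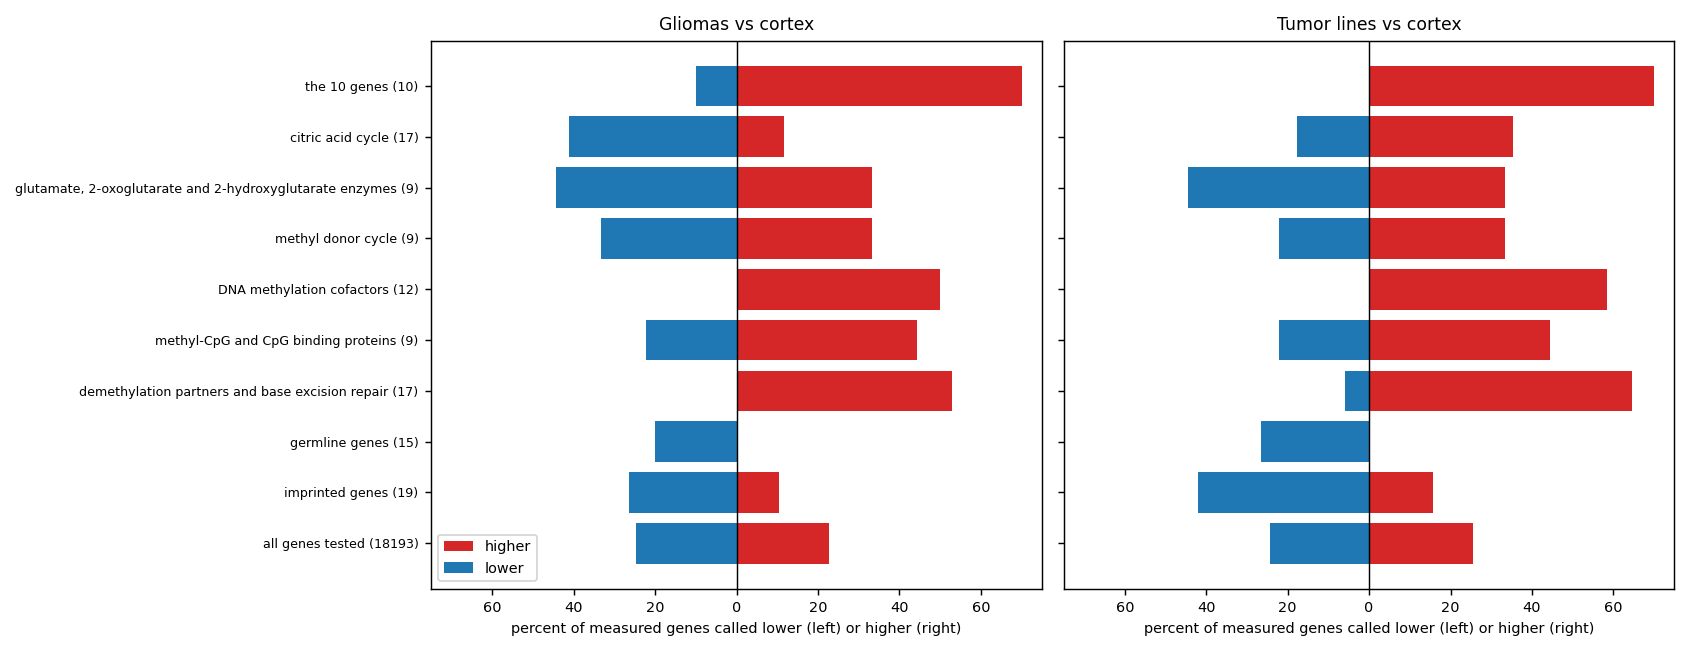
Percent of measured genes called higher (right) or lower (left) than cortex (horizontal axis) in gliomas and in tumor lines, for the 10 genes, 8 surrounding lists and all 18193 genes, with the number measured in brackets. None of the cofactors of DNA methylation was called lower, and none of the germline genes was called higher, in either comparison.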

How the data were processed

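RNA from 40 mouse samples was hybridized to Affymetrix mouse expression arrays, 1 array a sample. The authors corrected the background, brought the 40 arrays to common quantiles and summarized probes by RMA, and the deposited values (2.0 to 14.47) were taken as log2 signals, although no base is given in the sources used here. The table held no present or absent calls. Of 45101 probe sets, 34945 named 1 gene in GEO's platform annotation (34741 of them with a symbol in RefSeq), 932 named several, 9160 named none and 64 were controls; the brightest probe set stood for each gene. Genes were fitted in 1 model of 5 groups in limma 3.58.1 (R 4.3.3), which was tested on simulated data. Scores and permutations were computed in Python 3.11.15 with numpy 2.4.6. Genes named are the 10, up to 3 called genes a direction from each list, and the 3 most alike. The genes and lists were chosen with earlier results of these data known. Alternatives changed the probe set rule, filter, scaling, weights, moderation, threshold or samples. The number of arrays limits the precision.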

Additional observations from a re-analysis of the deposited data

How the results depend on the processing

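Of the values for single genes recomputed under the alternatives, 569 kept their direction and their side of the threshold, 24 lost the call, 6 gained it and 26 changed sign. The 10 genes gave 4 calls in place of 8 between gliomas and cortex with only the Cre-positive cortices, and 2 in place of 4 between tumor lines and p53R172HCKO gliomas both without _x_at and _s_at probe sets, where Idh1 has no probe set left and 9 genes are measured, and with cyclic loess. Leaving out 1 cortex gave 6 to 7 calls against cortex in gliomas. The causes were not tested.

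Log2 fold changes that changed sign were all of genes not called. With the mean of all probe sets, the p53R172HCKO minus p53nullCKO differences became -0.11 for Dnmt3a, 0.033 for Tet1 and -0.0083 for Tet2, and the early biopsy minus tumor line difference 0.37 for Tet2. Without _x_at and _s_at probe sets, Tet1 gave 0.21 between the genotypes, and array weights gave -0.019 for Tet2. With cyclic loess, Dnmt3a gave -0.22 in gliomas against cortex, and Dnmt1 and Tet2 gave 0.018 and 0.032 in early biopsy against tumor lines. Without arrays 38, 45 and 58, Dnmt3a and Tet2 gave -0.074 and -0.039 between the genotypes and Uhrf1 gave -0.16 in tumor lines against p53R172HCKO gliomas. Without arrays 36, 41 and 50, Dnmt3a gave -0.042 in gliomas against cortex and Idh2 0.020 between the genotypes. With only the Cre-positive cortices, Dnmt3a and Tet3 gave -0.082 and 0.054 in gliomas against cortex, and with 1 cortex left out they ranged from -0.030 to 0.071 and from -0.11 to 0.080. With either early biopsy line left out, the differences from tumor lines ranged from -0.83 to 0.39 for Idh2, from -0.014 to 0.42 for Idh3a, from -0.28 to 0.25 for Dnmt1 and from -0.14 to 0.062 for Tet2.

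Correlations that changed sign did not pass on all arrays. With cyclic loess, the cell cycle r became -0.031 for Dnmt3a, -0.080 for Tet2 and -0.024 for Tet3, and the neuron r 0.024 for Dnmt3a. Without arrays 38, 45 and 58, the cell cycle r was 0.15 for Idh3a, -0.068 for Dnmt3b and -0.59 for Tet2, the last of which then passed (adjusted p = 0.0386), and the neuron r was 0.30 for Idh1, 0.17 for Dnmt1, 0.22 for Dnmt3a and 0.44 for Uhrf1. Without arrays 36, 41 and 50 the cell cycle r of Tet3 was -0.23. Without the 2 farthest arrays, the cell cycle r in gliomas was 0.047 for Idh3a and -0.31 for Tet2, the neuron r 0.055 for Idh1 and 0.18 for Uhrf1, and the cell cycle r in tumor lines 0.32 for Dnmt3a, 0.045 for Tet2 and 0.18 for Tet3. With the mean of all probe sets, the cell cycle r in gliomas passed for Idh3a (-0.55, adjusted p = 0.0407) and Dnmt3b (0.51, adjusted p = 0.0438).

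No paired analysis was possible because the labels do not say which line came from which tumor, although the methods pair them. Quantile normalization hides a shift of most genes in 1 direction. The 5 cortices and 2 early biopsy lines limit the precision, and the dim signals in cortex of Uhrf1, Dnmt3b, Hells, Ung, Apobec1, Mtr and Peg12 limit how exact their fold changes are.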
